A study of Mus musculus with 16 samples.

Results

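The genes described here encode basement membrane proteins: the collagen IV chains Col4a1, Col4a2 and Col4a5, the laminin chains Lama2, Lama4, Lamb1 and Lamc1, the nidogens Nid1 and Nid2, and perlecan, Hspg2. They were chosen by name for their place in the basement membrane, with earlier results of these data known. They are 10 of the 55414 genes in the count table. All 10 passed the filter on low counts that left 15285 genes for testing. RNA-seq was run on 16 libraries of mouse cardiac fibroblasts at passage 2, with 4 libraries in each of the groups GFP, Cre, GFP_TGFB and Cre_TGFB. The treatment protocol gives the cells as Has2fl/fl, so every group carries the floxed gene for hyaluronan synthase 2, while the genotype field of every library reads Wild Type C57BL/6J. Cells were serum starved for 24 h and received a GFP adenovirus, labelled Control, or a Cre adenovirus, labelled as knockout of Has2 exon 2, for 5 h. Fresh medium followed, and RNA was taken 48 h later. The protocol names bFGF and TGFb at 20 ng/mL for this step, and does not state whether the cells without TGFB received bFGF. Replicate numbers 1 to 4 stand for the same 4 library codes in every group, and are called preparations 1 to 4 below. Preparations 1 and 4 are labelled male, and 2 and 3 female. Whether a preparation came from 1 heart or several, and how old the mice were, was not stated in the labels.

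Basement membranes are thin sheets of extracellular matrix that line epithelia, endothelia, muscle fibres and nerves. Laminin trimers of an alpha, a beta and a gamma chain bind cell-surface receptors and polymerise, collagen IV trimers form a crosslinked network of their own, and nidogens and the heparan sulfate proteoglycan perlecan bridge both. In the heart a basement membrane surrounds each cardiomyocyte and each capillary, and fibroblasts are among the cells that supply its components. TGFB is a growth factor known for turning cardiac fibroblasts into matrix-producing myofibroblasts.

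Library totals ran from 17858263 to 48748487 counts. All 7 fibroblast markers examined were above 1 CPM (a gene's count relative to the library's total, scaled between libraries by the TMM method) on average in every group. Of the 8 cardiomyocyte markers 2, Actc1 and Pln, had 0 counts in every library, while Tnnt2, a cardiac troponin, had group means from 4.14 CPM in GFP_TGFB to 13.6 in Cre. The 8 summed to between 3.12 and 23.5 CPM in a library. The 6 macrophage markers summed to between 340 and 1131 CPM in a library. Has2, the gene labelled as deleted, stood at 18.7 ± 3.27 CPM in GFP and 14.7 ± 1.38 in Cre (SD, n = 4), and at 16.8 ± 5.67 in GFP_TGFB and 16.5 ± 6.32 in Cre_TGFB. Its Cre against GFP difference was -0.35 ± 0.26 (log2, SE; edgeR adjusted p = 0.9997) without TGFB and -0.03 ± 0.26 (adjusted p = 0.9996) with it. Libraries of the same preparation deviated from their group means together, so each comparison is also given from a fit with the preparation as an additive term, called the replicate block. In that fit the Has2 difference was -0.32 ± 0.15 without TGFB (95% interval -0.65 to 0.00449, adjusted p = 0.827), lower with Cre in 4 of 4 preparations by -0.27, -0.18, -0.48 and -0.40. With TGFB it was -0.04 ± 0.15 (adjusted p = 0.949), lower in 2 of 4. Has2 thus passed the test in neither fit. A count over the whole gene also holds reads from exons other than exon 2, so the deletion itself was not tested, and the names Cre and GFP stand for the viruses in what follows. The replicates behind each p-value are these preparations.

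The 10 genes spanned a wide range of levels. Per kilobase of annotated exon, in the GFP group, Col4a1 stood highest at 596 ± 139 CPM per kb and Col4a2 next at 516 ± 128 (SD, n = 4), the pair of chains that build the most widespread collagen IV trimer. Nid1 followed at 190 ± 26.3, Hspg2 at 175 ± 46.5, Lamc1 at 144 ± 33.5 and Lamb1 at 127 ± 25.5. Lama4 stood at 72.8 ± 18.5, Col4a5 at 47.9 ± 12.1, Nid2 at 15.01 ± 6.22 and Lama2 at 9.16 ± 2.91. Col4a1 and Col4a2, Nid1 and Hspg2, Hspg2 and Lamc1, and Lamc1 and Lamb1 were neighbours in this order whose means lay within 1 SD of each other. With the longest annotated transcript in place of all exons, Lamb1 moved up to 217 CPM per kb, Lama4 to 145 and Lama2 to 15.6, and Lamb1 then stood beside Nid1 at 216. In summed CPM the 10 genes made up 15572 ± 3589 in GFP, 13602 ± 3335 in Cre, 15918 ± 4913 in GFP_TGFB and 13750 ± 5363 in Cre_TGFB, and the groups overlapped.

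**Figure D1:**
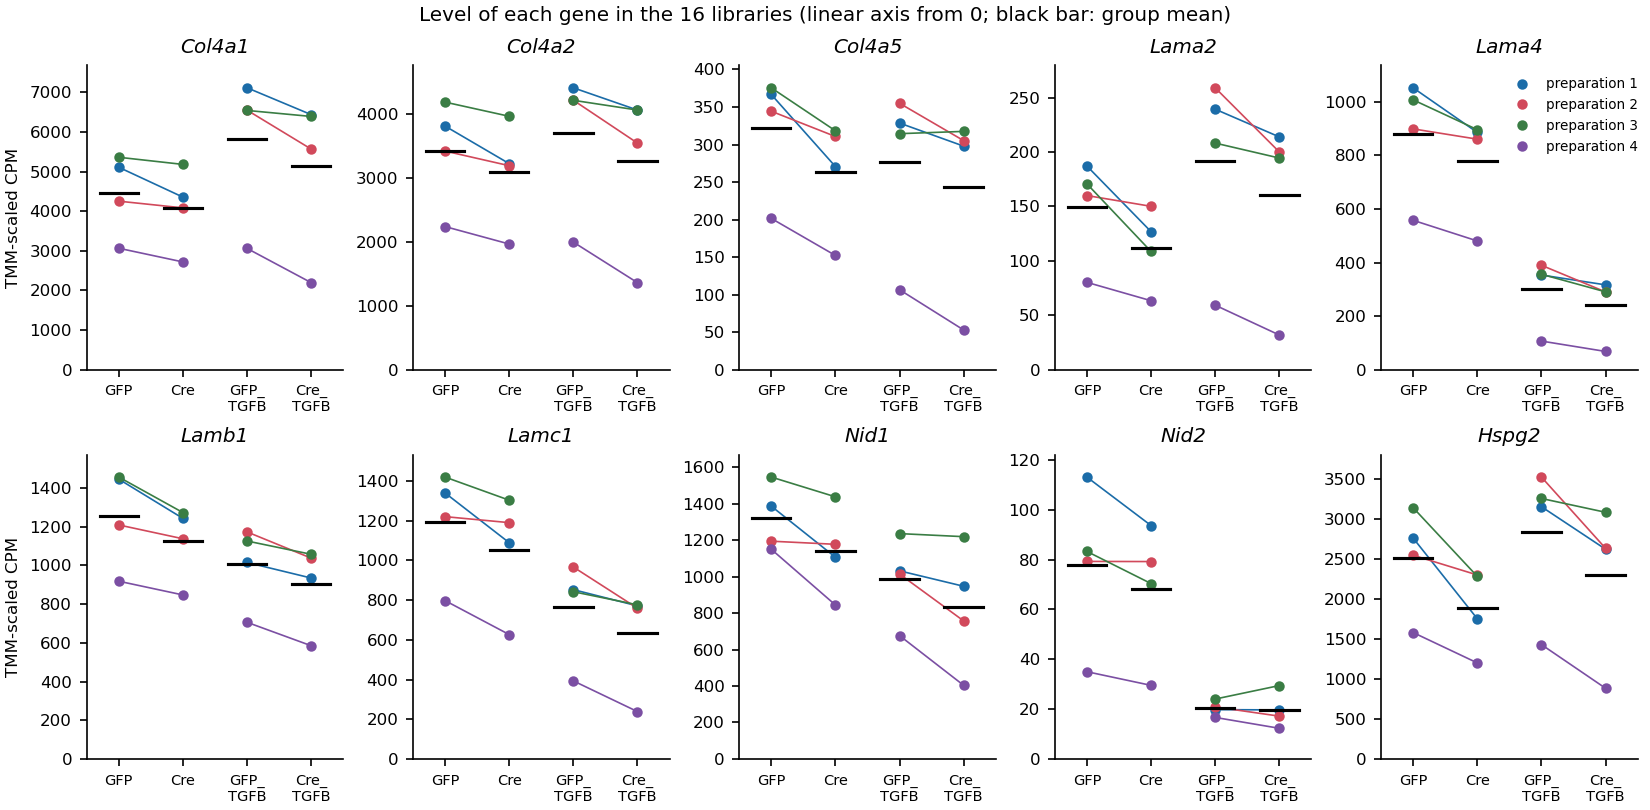
TMM-scaled CPM of each gene (y axis, linear, from 0) in the 4 groups (x axis), with 1 point per library coloured by preparation, lines joining Cre to GFP libraries of 1 preparation, and black bars for group means. Lama4 and Nid2 are lower in every library with TGFB than in any without it, and preparation 4 holds the lowest value of nearly every gene and group.

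Col4a1 and Col4a2 lie head to head on chromosome 8 and are read in opposite directions. Their annotated RefSeq starts (GRCm38.p6) are 21 bases apart, each inside the other gene, and the genes share 22 annotated exon bases. The bases before each start therefore also lie in the other gene. The promoter windows of 300 bases, each from 250 before to 50 after a start, share 78 bases. Both windows are printed because the results below turn on how this pair moves; each is given 5′ to 3′ on its own gene's strand, with the shared bases in capitals. The Col4a1 window is chr8:11312777-11313076 on the minus strand, and the Col4a2 window is chr8:11312555-11312854 on the plus strand.
Col4a1: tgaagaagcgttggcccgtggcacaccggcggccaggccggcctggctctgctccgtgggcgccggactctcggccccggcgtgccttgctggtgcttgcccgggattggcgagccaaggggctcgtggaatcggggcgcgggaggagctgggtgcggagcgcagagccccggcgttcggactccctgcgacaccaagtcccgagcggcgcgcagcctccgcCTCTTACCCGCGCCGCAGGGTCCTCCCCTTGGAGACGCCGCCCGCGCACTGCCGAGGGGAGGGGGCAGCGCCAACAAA
Col4a2: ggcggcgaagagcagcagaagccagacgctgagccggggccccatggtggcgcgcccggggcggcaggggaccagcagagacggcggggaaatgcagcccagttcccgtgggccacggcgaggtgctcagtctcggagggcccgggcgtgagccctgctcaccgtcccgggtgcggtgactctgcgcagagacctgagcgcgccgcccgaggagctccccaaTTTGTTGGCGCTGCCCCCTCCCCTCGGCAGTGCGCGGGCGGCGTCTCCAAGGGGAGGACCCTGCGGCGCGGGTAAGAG
GC content was 74.0% in the Col4a1 window and 73.7% in that of Col4a2, against a median of 52.7% over all 32851 windows. A window was found for 7 of the 10 genes: Col4a1, Col4a2, Col4a5, Lama2, Lamb1, Nid1 and Hspg2. Searched on both strands, the letters GGGCGG (a GC box) occurred in all 7, and in 35.7% of all windows. Hspg2 held 5 of them and Col4a2 held 3. The match of Col4a1 and 1 of those of Col4a2 are the same bases, inside the shared stretch. GC content of the 7 windows ran from 50.3% for Lama2 to 74.0% for Col4a1, and no share was taken among windows of like GC content. CCAAT occurred in 5 of the 7, those of the collagen IV genes, Lamb1 and Nid1, against 37.4% of all windows. CAGAC, the short SMAD element, occurred in Col4a2, Lama2 and Lamb1, against 49.6%. None of the 7 windows held TATAAA (13.6% of all windows), TGACTCA or TGAGTCA (5.2% together) or CACGTG (7.2%). These are matches of letters in a fixed window and no measure of binding.

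With TGFB in GFP cells, 2 of the 10 genes fell and none rose in the fit without the replicate block (edgeR's quasi-likelihood test, Benjamini-Hochberg adjusted p under 0.05). The 2 were Lama4 and Nid2. Over all tested genes, 13.8% were called higher and 15.3% lower in this comparison. With the replicate block 1 gene, Col4a1, rose and 5 fell, Lama4, Lamb1, Lamc1, Nid1 and Nid2, where 22.6% of all tested genes were called higher and 26.5% lower. The genes' median log2 change was -0.27 without the block and -0.33 with it, against -0.02 over all tested genes in both fits. Tested genes with transcripts at least as long as the shortest of the 10 had a median of -0.11 in both fits. In Cre cells, compared with their own controls without TGFB, 2 genes fell and 0 rose without the block, where 14% of all tested genes were called higher and 16.3% lower. With the block 5 fell and 0 rose, where 25.2% were called higher and 27.3% lower. The genes that fell were those named for GFP cells, in each fit. The median change of all 10 genes in Cre cells was -0.21 without the block and -0.31 with it. Over all tested genes it was 0.02 and 0.01, and over tested genes with transcripts as long, -0.03 and -0.04.

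The collagen IV chains did not share 1 response. Col4a1 measured 5109, 4254, 5362 and 3066 CPM in the GFP libraries of preparations 1 to 4, and 7114, 6550, 6543 and 3061 in the GFP_TGFB libraries. The first 3 preparations were higher with TGFB and the fourth stood at its control level, so the groups overlapped. The log2 change was 0.39 ± 0.33 (SE, adjusted p = 0.407) without the block and 0.34 ± 0.13 (adjusted p = 0.0342) with it. In Cre cells Col4a1 measured 4356, 4084, 5181 and 2720 CPM without TGFB and 6437, 5567, 6391 and 2196 with it, again higher in preparations 1 to 3 only. The change there was 0.33 ± 0.33 without the block (adjusted p = 0.462) and 0.26 ± 0.13 with it (adjusted p = 0.0953), and did not pass in either fit. Col4a2, its usual partner chain, had values of 0.12 ± 0.33 in GFP cells and 0.08 ± 0.33 in Cre cells; the block gave 0.09 and 0.01, and none of these passed. Col4a5, on the X chromosome and best known for the collagen network of the kidney filter, had values of -0.22 ± 0.46 in GFP and -0.11 ± 0.46 in Cre cells and passed in neither fit.

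The ratio of Col4a1 to Col4a2 was steadier than either level. Per length it was 1.19, 1.10, 1.14 and 1.21 in the GFP libraries and 1.20, 1.13, 1.16 and 1.23 in the Cre libraries of preparations 1 to 4. With TGFB it was 1.43, 1.38, 1.38 and 1.36 in GFP_TGFB and 1.40, 1.39, 1.39 and 1.43 in Cre_TGFB. All 8 libraries with TGFB lay above all 8 without it, preparation 4 included. The log2 difference of the ratio was 0.26 ± 0.07 with the GFP virus and 0.25 ± 0.03 with the Cre virus (SD over 4 preparations), each with an exact two-sided permutation p of 0.0286, the smallest that 4 against 4 libraries allow (0.0317 after Benjamini-Hochberg adjustment over the 10 ratio comparisons made). That test exchanges libraries freely, although they come in pairs of 1 preparation. Exchanged only within preparations, the exact p was 0.125 in each of the 10 ratio comparisons, which is the smallest that 4 pairs allow, so no ratio could pass that test. The ratio of Col4a5 to Col4a1 went from 0.080 ± 0.007 in GFP to 0.051 ± 0.009 in GFP_TGFB and from 0.071 ± 0.010 in Cre to 0.049 ± 0.015 in Cre_TGFB, with the same p-values. With libraries exchanged freely, the smallest possible p records only that the groups did not overlap, and not how far apart they lay. The ratios were chosen after the levels had been seen, so their p-values add no support beyond the levels.

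**Figure D2:**
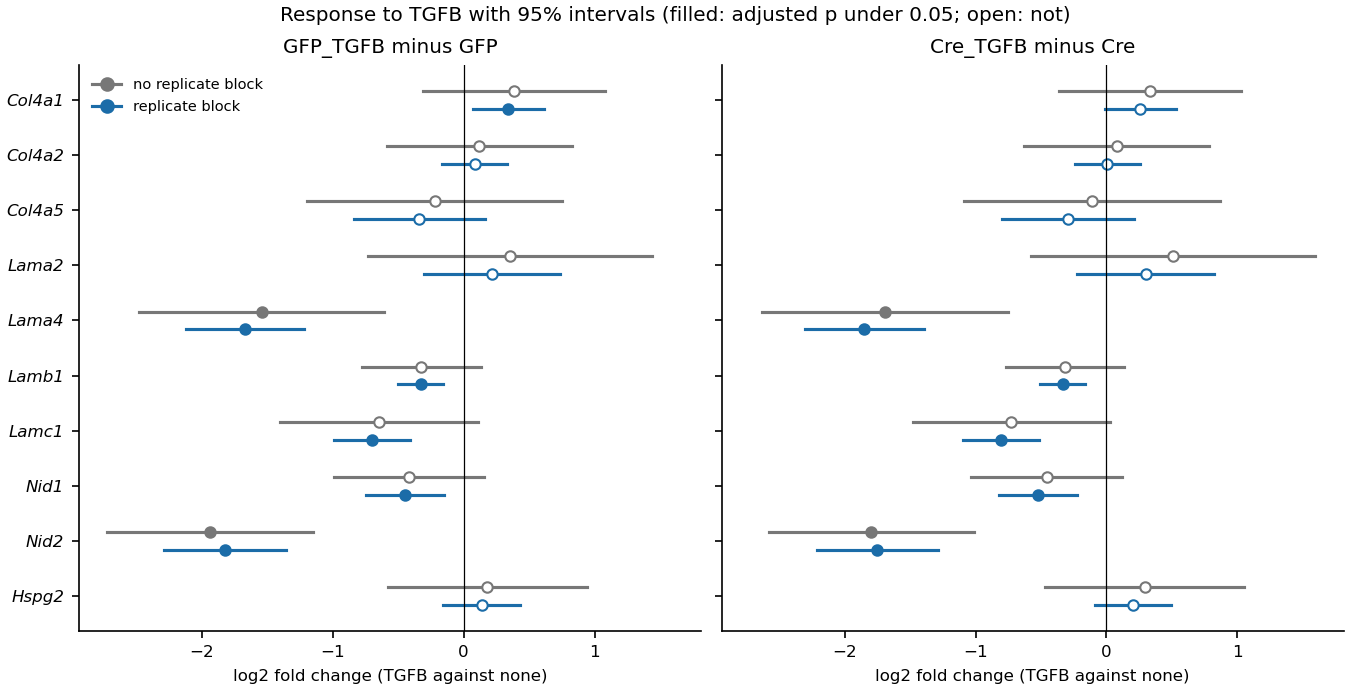
Log2 fold change with TGFB (x axis) of each gene (y axis) after the GFP virus (left) and the Cre virus (right), with 95% intervals, in grey without and in blue with the replicate block; filled points passed an adjusted p of 0.05. Lama4 and Nid2 lie furthest below 0 in both panels, at -1.54 and -1.93 in GFP cells without the block, and the block narrows every interval.

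Among the 4 laminin chains of the set Lama4 moved most. Its product is the alpha chain of the laminins found in vessel walls and in stromal and fat tissue. Lama4 measured 1052, 899, 1007 and 558 CPM in the GFP libraries and 353, 390, 356 and 107 in GFP_TGFB, so no library with TGFB reached the lowest without it. The change was -1.54 ± 0.44 (log2, SE; adjusted p = 0.0155), or -1.67 ± 0.21 with the block (adjusted p = 1.99e-05), and it was below 0 in 4 of 4 preparations. In Cre cells it measured 886, 860, 896 and 481 CPM without and 317, 290, 291 and 68.2 with TGFB, a change of -1.69 ± 0.44 (adjusted p = 0.00922), or -1.85 ± 0.21 with the block (adjusted p = 7.94e-06). In the fit without the block, the adjusted p of Lama4 in GFP cells went above 0.05 when all libraries of preparation 1, 2 or 3 were left out (0.104, 0.0709 and 0.0988), with changes of -1.53, -1.67 and -1.53. In Cre cells it did so too (0.061, 0.061 and 0.069). Lama2, the alpha chain of muscle laminin whose loss causes a congenital muscular dystrophy, had positive values: 0.36 ± 0.51 in GFP cells and 0.51 ± 0.51 in Cre cells, which passed in neither fit.

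The ratio of the alpha chains set Lama4 and Lama2 apart in every preparation. Per length, Lama4 to Lama2 was 7.61, 7.60, 7.98 and 9.40 in GFP and 2.00, 2.04, 2.32 and 2.44 in GFP_TGFB. In Cre it was 9.45, 7.76, 11.2 and 10.3, and in Cre_TGFB 2.01, 1.97, 2.02 and 2.90. The log2 difference was -1.89 ± 0.07 with the GFP virus and -2.13 ± 0.28 with the Cre virus (SD over 4 preparations; exact two-sided permutation p = 0.0286 each, 0.0317 adjusted over the 10 comparisons). This ratio was chosen after the levels of Lama4 and Lama2 had been seen, and the permutation ignored the pairing by preparation. Its p-values therefore add no support beyond the levels. Lama4 was the more abundant of the pair per length in all 16 libraries. Per length of the longest transcript the mean ratio was 9.57 in GFP and 2.58 in GFP_TGFB; the choice of length cancels from the difference between groups.

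Lamb1 and Lamc1 encode the beta and gamma chains that most laminin trimers of mesenchymal cells share. Lamc1 measured 1340, 1220, 1420 and 798 CPM in GFP and 853, 967, 842 and 393 in GFP_TGFB, lower in each preparation, and the groups overlapped, since preparation 4 without TGFB lay below preparations 1 to 3 with it. Its change was -0.65 ± 0.35 without the block (adjusted p = 0.191) and -0.70 ± 0.14 with it (adjusted p = 0.000638). In Cre cells the change was -0.73 ± 0.35 (adjusted p = 0.133), or -0.80 ± 0.14 with the block (adjusted p = 0.000187). Lamb1 moved less, by -0.32 ± 0.21 in GFP cells (adjusted p = 0.278) and -0.33 ± 0.08 with the block (adjusted p = 0.0033), with -0.32 ± 0.21 (adjusted p = 0.275) and -0.34 ± 0.08 (adjusted p = 0.00258) in Cre cells. The Lamb1 to Lamc1 ratio per length was 0.885 ± 0.058 in GFP against 1.15 ± 0.23 in GFP_TGFB (exact permutation p = 0.0286, adjusted 0.0317). In Cre against Cre_TGFB it was 0.923 ± 0.153 against 1.33 ± 0.48, where the groups overlapped (exact permutation p = 0.0571). Here too the ratio was chosen after the levels had been seen and the permutation ignored the pairing, so these p-values add no support beyond the levels.

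**Figure D3:**
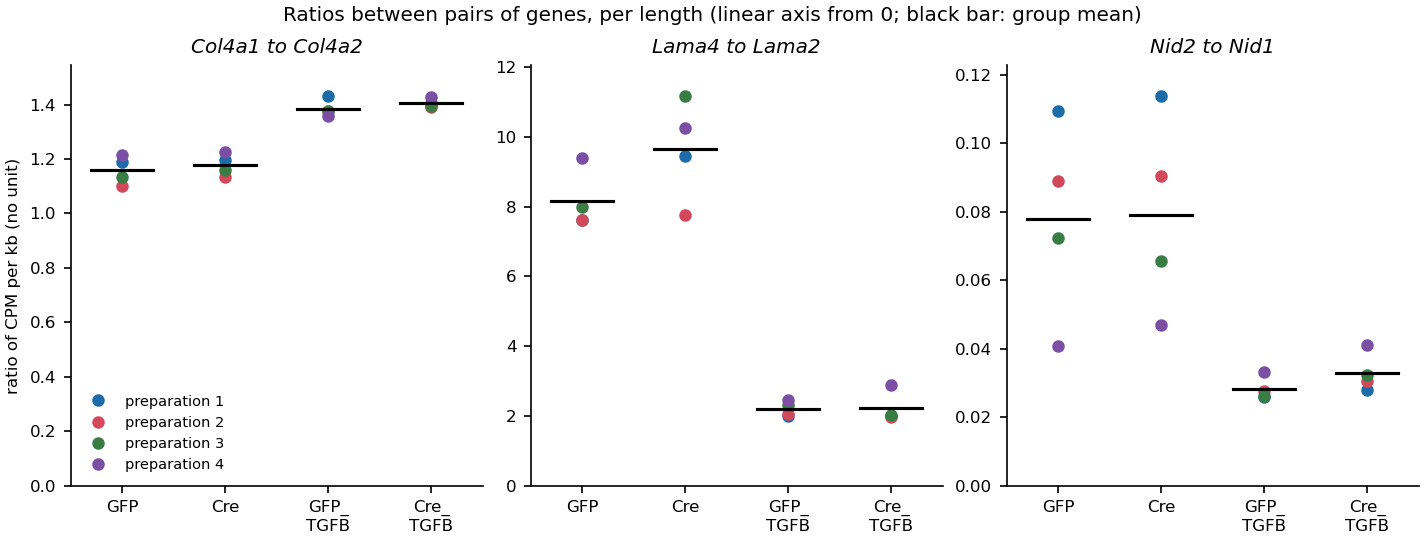
Ratio of CPM per kb (y axes, linear, from 0) for Col4a1 to Col4a2, Lama4 to Lama2 and Nid2 to Nid1 in the 4 groups, with 1 point per library coloured by preparation and black bars for group means. The mean Col4a1 to Col4a2 ratio is 1.16 in GFP and 1.39 in GFP_TGFB, and the mean Lama4 to Lama2 ratio 8.15 and 2.20.

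Nidogens join the laminin and collagen IV networks, and both were lower with TGFB, Nid2 by far the more. Nid2 measured 113, 79.3, 83.3 and 35.0 CPM in GFP and 19.8, 20.9, 24.0 and 16.7 in GFP_TGFB. The libraries without TGFB were widely spread and those with it lay close together. The change was -1.93 ± 0.37 (adjusted p = 0.00116), or -1.82 ± 0.22 with the block (adjusted p = 1.31e-05), and ran from -2.51 in preparation 1 to -1.07 in preparation 4. In Cre cells Nid2 measured 93.7, 79.2, 70.4 and 29.5 CPM without and 19.7, 17.2, 29.5 and 12.3 with TGFB. Preparation 3 with TGFB lay just under preparation 4 without it, both at 29.5 after rounding, so the groups were barely apart. The change was -1.79 ± 0.37 (adjusted p = 0.0019), or -1.75 ± 0.21 with the block (adjusted p = 1.65e-05). Nid2 shares 437 annotated exon bases with Rtraf, a gene on the opposite strand with 56688 counts over the 16 libraries against 21971 for Nid2, and the labels do not say whether counting used strand. Nid1 measured 1386, 1194, 1545 and 1150 CPM in GFP and 1031, 1014, 1235 and 676 in GFP_TGFB, groups that overlapped. Its change was -0.42 ± 0.27 (adjusted p = 0.271), or -0.45 ± 0.14 with the block (adjusted p = 0.0151), and -0.46 ± 0.27 (adjusted p = 0.213), or -0.52 ± 0.14 with the block (adjusted p = 0.00604), in Cre cells.

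Perlecan, Hspg2, did not pass in either fit with all preparations, at 0.18 ± 0.36 in GFP cells and 0.29 ± 0.36 in Cre cells. Preparation 4 differed from the other preparations here. In it all 10 genes were below 0 with TGFB in GFP cells and in Cre cells, while preparations 1 to 3 each had 4 or 5 genes above 0. Signs in single preparations were not counted over all tested genes. With preparation 4 left out and the block kept, 3 genes rose with TGFB in GFP cells, Col4a1 by 0.46 (adjusted p = 0.000127), Lama2 by 0.44 (adjusted p = 0.000725) and Hspg2 by 0.23 (adjusted p = 0.0391). The same 3 rose in Cre cells, by 0.44, 0.67 and 0.41 (adjusted p = 0.000167, 1.41e-05 and 0.00121). The 5 that fell with all preparations also fell without preparation 4. Over all genes tested in that fit, 25.3% were called higher and 27.7% lower in GFP cells, and 28% and 28.6% in Cre cells.

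Only Lama4 and Nid2 were lower with TGFB with no overlap between the 4 libraries of each group, in GFP cells and in Cre cells. Over all tested genes, 14.7% in GFP cells and 15.8% in Cre cells were lower with no overlap. The 8 endothelial markers also had lower summed levels with TGFB. None of the 8 was at 0 in all libraries, and their sum was 32.9 to 46.7 CPM in GFP, 31.5 to 45.0 in Cre, 14.6 to 25.0 in GFP_TGFB and 13.5 to 20.8 in Cre_TGFB. Tek averaged 17.9 CPM in GFP and 3.83 in GFP_TGFB, and Cdh5 11.8 and 8.81. Lower levels were not particular to endothelial markers. Among fibroblast markers Pdgfra averaged 952 and 148 CPM in these groups, Tcf21 126 and 27.1, and Dcn 851 and 316. Lum averaged 127 and 43.6 and Ddr2 396 and 203, while Col1a1 averaged 9665 and 17431 and Col1a2 9683 and 11550. The 6 macrophage markers summed to 539 to 1079 CPM in GFP and 355 to 736 in GFP_TGFB. The 7 pericyte and smooth muscle markers summed to 71.6 to 161 CPM in GFP and 68.2 to 144 in GFP_TGFB, overlapping ranges. Within that list Notch3 averaged 120 CPM in GFP and 31.9 in GFP_TGFB, while Cspg4 averaged 11.3 and 69.2 and Myh11 1.12 and 2.77. The other 4 averaged at most 1.27 CPM in these groups. The part of any of these cell types in the levels of Lama4 and Nid2 was not tested. In bulk RNA, fewer cells of a type and less RNA per cell cannot be told apart.

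The shares of single genes in the set differed between media. Of the genes' summed CPM per kb, Col4a1 held 31.5% ± 0.56 in GFP, 32.7% ± 1.09 in Cre, 39.7% ± 1.31 in GFP_TGFB and 40.5% ± 0.79 in Cre_TGFB (SD, n = 4). The share of Col4a2 was 27.2% ± 0.86 in GFP and 28.6% ± 0.33 in GFP_TGFB. Lama4 went from 3.83% ± 0.26 to 1.22% ± 0.26, Lamc1 from 7.62% ± 0.23 to 4.69% ± 0.34, Nid1 from 10.3% ± 1.64 to 7.54% ± 1.31 and Nid2 from 0.769% ± 0.211 to 0.215% ± 0.062 between GFP and GFP_TGFB. Shares sum to a whole, so that a rise of 1 lowers the others.

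**Figure D4:**
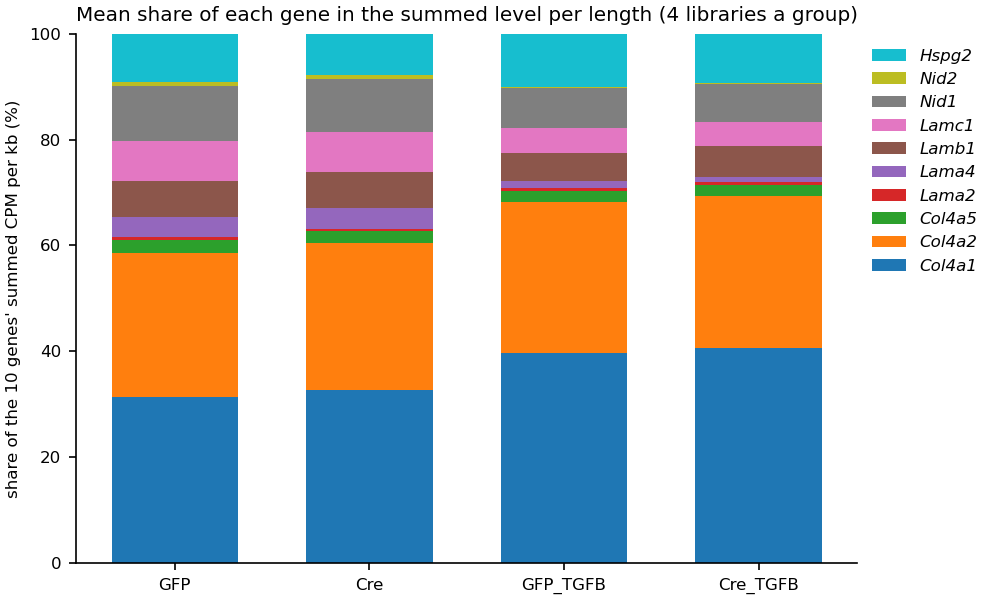
Mean share of each gene in the summed CPM per kb of the 10 genes (y axis, percent, from 0) in the 4 groups (x axis, 4 libraries each). Col4a1 and Col4a2 are the 2 largest parts in every group, with Col4a1 at 31.5% in GFP and 39.7% in GFP_TGFB.

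The Cre virus was compared with the GFP virus to see what the intended loss of Has2 did. Without TGFB, 0 of the 10 genes passed the test in either fit, with 0% of all tested genes called without the block and 0.17% with it. At an unadjusted p under 0.05, 169 of all tested genes passed without the block and 882 with it, and DESeq2 called 2. All 10 genes had values below 0, in each of the 4 preparations. Their median was -0.19 without the block and -0.20 with it, against -0.01 over all tested genes. Of the 3323 tested genes with transcripts at least as long as the shortest of the 10, 82.4% were below 0 too. The levels of the 10 genes were correlated, so their signs are not independent, and signs in single preparations were not counted over all tested genes. Values of the 10 ran from -0.12 for Col4a1 to -0.41 for Hspg2 and Lama2. Hspg2 measured 2763, 2548, 3143 and 1581 CPM in GFP and 1754, 2302, 2284 and 1202 in Cre. It was lower with Cre in each preparation, by -0.66, -0.15, -0.46 and -0.40, although the groups overlapped. Its change was -0.41 ± 0.36 (adjusted p = 0.9997), or -0.41 ± 0.14 with the block (95% interval -0.70 to -0.12, adjusted p = 0.658). Lama2 measured 187, 160, 171 and 80.3 CPM in GFP and 127, 150, 109 and 63.4 in Cre, a change of -0.40 ± 0.24 with the block (95% interval -0.92 to 0.12). With preparation 4 left out and the block kept, Lama2 at -0.44 (adjusted p = 0.0335) and Hspg2 at -0.42 (adjusted p = 0.0407) passed, where 0.751% of all tested genes were called.

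With TGFB in both arms, Cre against GFP again gave 0 genes past the test in either fit, with 0% of all tested genes called without the block and 0.0654% with it (268 and 2039 at an unadjusted p under 0.05, and 0 by DESeq2). All 10 values were below 0, with a median of -0.22 without the block and -0.29 with it. All 10 were below 0 in preparations 1, 2 and 4, and 8 in preparation 3, where Col4a5 and Nid2 lay above 0. These signs are not independent either, and were not counted over all tested genes by preparation. The size differed between preparations: the median of the 10 was -0.67 in preparation 4 and -0.07 in preparation 3. Lama4 had the lowest value at -0.32 ± 0.43 (block -0.36 ± 0.20, adjusted p = 0.455), followed by Hspg2 at -0.30 ± 0.36 (block -0.35 ± 0.14, 95% interval -0.64 to -0.06, adjusted p = 0.322). Nid2 had the value nearest to 0, -0.05 ± 0.36 (block 95% interval -0.58 to 0.35).

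Transcript length moved with this comparison. The shortest of the 10 longest annotated transcripts is that of Nid2, 4.88 kb. The 3323 tested genes with a transcript at least as long had a median Cre against GFP change of -0.12, with 82.4% below 0, without TGFB, and of -0.08, with 65.6% below 0, with it. The 11936 shorter genes had medians of 0.02 and 0.01. With each library's trend of log2 CPM on transcript length removed, the 10 genes' median was -0.09 without TGFB and -0.21 with it. All 10 stayed below 0 in each, with 0 past the test, and values without TGFB ran from -0.25 to -0.01. These signs are not independent, and no share of other genes below 0 was taken after removal. Hspg2 and Lama2 have the longest transcripts of the 10, 14187 and 9614 bases. With the block and all preparations, removal of the trend moved Hspg2 without TGFB from -0.41 to -0.20 (edgeR adjusted p = 0.596). Lama2 moved from -0.40 to -0.23, and neither passed. The trend was not removed in the fit without preparation 4, where these 2 had passed. Removal of the trend was chosen after the data had been seen.

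**Figure D5:**
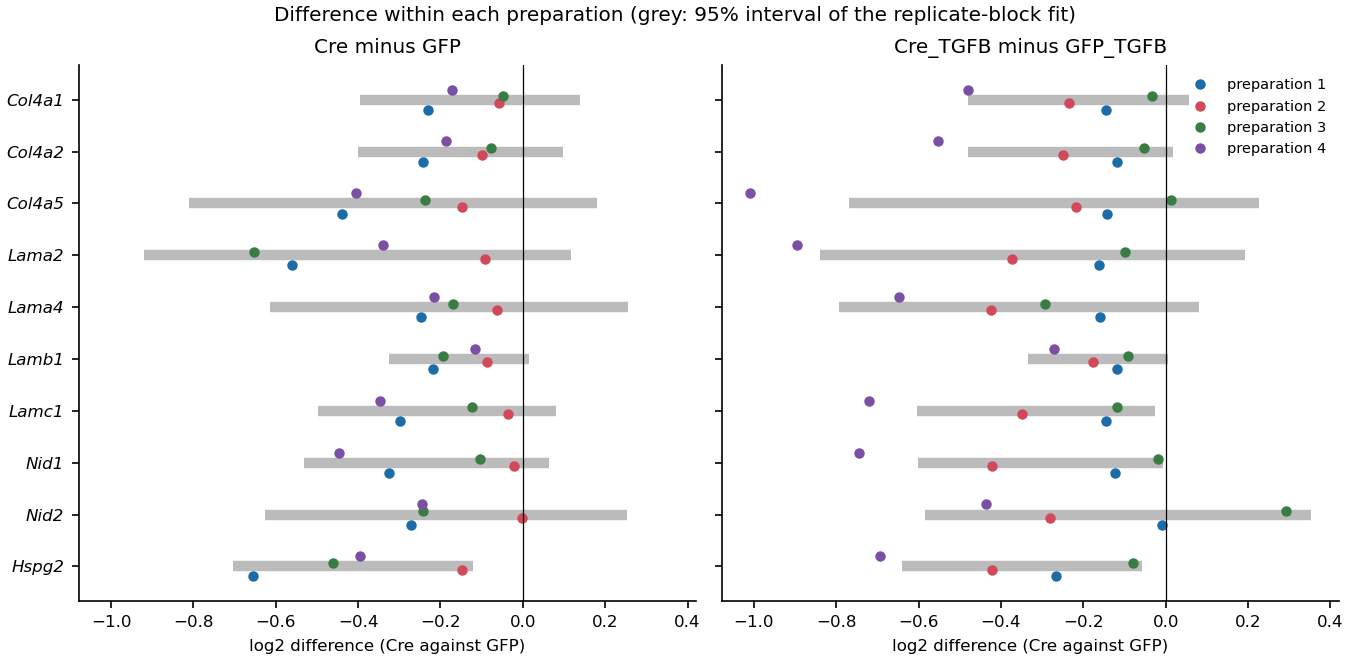
Log2 difference of Cre against GFP (x axis) for each gene (y axis) within each preparation, without TGFB on the left and with TGFB on the right; grey bars are the 95% intervals of the replicate-block fit. All 40 points on the left lie below 0, and on the right preparation 4 lies furthest left for most genes.

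The difference between the TGFB responses of Cre and GFP cells was tested as an interaction. It passed for 0 of the 10 genes in either fit, where 0% of all tested genes were called (90 at an unadjusted p under 0.05 without the block, 501 with it, and 0 by DESeq2). Values ran from -0.15 for Lama4 to 0.16 for Lama2 without the block. With the block the narrowest interval was that of Lamb1, -0.25 to 0.23, and the widest of the laminins that of Lama2, -0.65 to 0.81, so a difference of that size was not detectable for Lama2. The sign differed by preparation: all 10 genes were above 0 in preparation 1 and 9 in preparation 3, and all 10 were below 0 in preparations 2 and 4. The levels of the 10 genes were correlated, so these signs are not independent, and they were not counted over all tested genes.

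The preparation was the larger source of spread for most of these genes. Of the sum of squares of log2 CPM over the 16 libraries, the preparation held 87.2% for Col4a2, 78.6% for Lama2, 78.4% for Col4a1, 76.6% for Hspg2, 74.8% for Col4a5, 65.3% for Lamb1, 55.8% for Lamc1 and 50.03% for Nid1. The group held more only for Nid2, at 75.4% against 18.3%, and Lama4, at 65.1% against 29.8%. Medians over all tested genes were 31.7% for the preparation and 38.2% for the group. Preparation 4 lay below the mean of all 4 for each of the 10 genes, by values from -0.47 for Lamb1 to -1.27 for Lama2 with a median of -0.81, while tested genes with transcripts of 4.88 kb or more had a median of -0.15 and shorter genes of 0.04. The other preparations differed less, with medians for the 10 genes of 0.28, 0.22 and 0.34. Preparation 4 also stood apart over all tested genes. Its 4 libraries were separate from all others on the second principal component (the second main axis of variation between libraries), which held 20.3% of the variance. Its library code begins with R, and the codes of the other preparations with P. What sets preparation 4 apart was not tested.

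The levels of the genes were related across the 16 libraries, which share preparations and groups, so these values are descriptions. Pearson's r of log2 CPM over the 45 pairs had a median of 0.78 and ran from 0.085 for Col4a1 with Nid2 to 0.966 for Lamb1 with Lamc1. After group and preparation means were taken out, the median over the 45 pairs was 0.893, and Col4a1 and Col4a2 had the highest value, 0.989. The 9 pairs with Nid2 were the only ones of the 45 below 0 then, the lowest -0.610 with Col4a1, and the other 36 were above 0. The 0.989 of Col4a1 and Col4a2 was not particular to that pair. With the same means taken out, Col4a1 had 0.9935 with Stam2, and Lama4 had 0.9912 with Notch3. Among all tested genes, those with the pattern most like Lama4 were Notch3 (r = 0.996), Svep1 (0.996) and Scarb2 (0.995), and those most like Nid2 were Col14a1 (0.983), Tril (0.981) and Deptor (0.979). For Col4a1 they were Nlgn1 (0.980), Fam198b (0.977) and Stam2 (0.972), and for Col4a2 Adamts4 (0.985), Dag1 (0.981) and Sprr3 (0.980). Dag1 encodes dystroglycan, a laminin and perlecan receptor. For Col4a5 they were Pkd1, Nedd4 and Vps13d, for Lama2 St5 and Kidins220, for Lamb1 Zbtb7c, Aplp2 and Col6a3, for Lamc1 Sptan1, Itpr1 and Disp1, for Nid1 Wnk1, 2610507B11Rik and Ipo8, and for Hspg2 Wdr7, Myh10 and Fn1, the gene of fibronectin, all with r of 0.977 to 0.994.

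The remaining genes of the pathway were taken as 5 lists. Their counts stand beside the shares of all tested genes: 13.8% higher and 15.3% lower with TGFB in GFP cells (22.6% and 26.5% with the block), and 14% and 16.3% in Cre cells (25.2% and 27.3% with the block). Of the other 10 collagen IV and laminin chains, with TGFB in GFP cells 2 rose and 1 fell in the unblocked fit, and the block gave 4 higher and 4 lower. In Cre cells 2 rose and 0 fell, or 3 and 4 with the block. Those that passed without the block in GFP cells were all scarce: Lamc3 went from 0.056 to 0.428 CPM (adjusted p = 0.0113), Lama3 from 0.250 to 0.960 (adjusted p = 0.0355) and Col4a3 from 1.55 to 0.464 (adjusted p = 0.029). The median change of this list was -0.16 in GFP and -0.14 in Cre cells. Of 22 other basement membrane components 18 were tested, of which 2 rose and 7 fell in GFP cells (3 and 9 with the block), and 2 rose and 8 fell in Cre cells (2 and 10 with the block). Fbln1, the matrix glycoprotein fibulin-1, fell by 2.62 on the log2 scale in GFP cells (adjusted p = 0.000139) and Col18a1, whose product is the source of endostatin, fell by 2.15 (adjusted p = 1.48e-05). Matn2, matrilin-2, fell by 1.80 (adjusted p = 4.44e-06) and Ecm1, extracellular matrix protein 1, by 0.79 (adjusted p = 9.19e-06), each in 4 of 4 preparations.

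A list of 13 genes for folding, secretion and crosslinking of collagens, collagen IV among them, was tested in full. Which collagens they act on in these cells was not tested. With TGFB 4 rose and 0 fell in GFP cells (9 and 0 with the block), and 3 rose and 0 fell in Cre cells (8 and 1 with the block). The median change was 0.35 in GFP and 0.24 in Cre cells. Loxl2, a lysyl oxidase that crosslinks collagen IV, rose from 665 ± 152 to 1733 ± 572 CPM in GFP cells (adjusted p = 0.00538). Colgalt1, a collagen galactosyltransferase, rose by 0.91 ± 0.10 (adjusted p = 6.23e-06), the prolyl hydroxylase P3h1 by 0.73 ± 0.13 (adjusted p = 0.000736) and the lysyl hydroxylase Plod3 by 0.29 ± 0.08 (adjusted p = 0.0141). Of 16 basement membrane receptors and linked proteins 1 rose and 6 fell in GFP cells (3 and 8 with the block), and 2 rose and 6 fell in Cre cells (3 and 7 with the block), with medians of -0.39 and -0.25. Ilk, the integrin-linked kinase, rose by 0.78 ± 0.08 (adjusted p = 4.13e-06). Bcam, a receptor for laminins with the alpha 5 chain, went from 55.7 to 17.8 CPM (adjusted p = 0.00102), Ddr2, a collagen receptor kinase, from 396 to 203 (adjusted p = 0.00121) and Sntb2, a syntrophin of the dystrophin complex, from 126 to 49.2 (adjusted p = 0.000227). In Cre cells the sarcoglycan Sgcb fell by 1.14 (adjusted p = 0.00219). Of 12 enzymes of dystroglycan glycosylation 1 rose and 0 fell in GFP cells (3 and 1 with the block) and 1 rose and 0 fell in Cre cells (2 and 2 with the block). That gene was Pomgnt1, at 0.55 ± 0.08 (adjusted p = 0.000196) in GFP cells and 0.42 ± 0.08 (adjusted p = 0.00155) in Cre cells. In the Cre against GFP comparisons and the interaction, 0 genes of these 5 lists passed in either fit.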

How the data were processed

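RNA-seq counts per gene for the 16 libraries were taken as deposited by the authors. The submitters' processing notes list HTSeq 0.10.0, FastQC 0.10.1 and the build GRCm39 (mm39); for aligner, annotation and strand handling the answer is: not given in the sources used here. Symbols and lengths came from GENCODE M21 (GRCm38) by gene identifier, and promoter windows from RefSeq (GRCm38.p6). The members and lists were chosen with earlier results of these data known.

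Counts were tested in R 4.3.3 with edgeR 4.0.16 (limma 3.58.1): TMM scaling, a filter at a minimum count of 10 and total of 15, and quasi-likelihood F tests on 1 fit of all 16 libraries with 1 mean per group. Benjamini-Hochberg adjustment ran over all 15285 genes tested, which held 99.9% of counts. Adjusted p-values come from that tool. CPM is TMM-scaled. SE is that of the log2 fold change. Groups and pairing follow the labels: the same replicate number has the same library code, and deviations from group means correlated at 0.323 to 0.838 over 24 same-number pairs, against a median of -0.13 over 72 others. The 24 pairs of libraries within groups differed by a chi-square of 7.24 to 217 per gene, so none was a repeat. Alternatives were the replicate block, DESeq2 1.42.0, RLE scaling, other filters, only the compared libraries, leaving out libraries or preparations, length of the longest transcript, and removal of each library's trend on transcript length. Ratios were compared by exact permutation, freely and, added after seeing the data, within preparations. Depth limits only the scarce genes: the 10 had at least 307 counts in each library. Named genes are the 10, Has2, up to 4 genes per list and comparison with the smallest adjusted p, and the 3 genes most correlated with each of the 10. One of the latter is not reported here.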

Additional observations from a re-analysis of the deposited data

Results flagged for a closer look

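Within groups of 4 libraries, a library was picked out when its gap to the nearest other as a share of the group's range exceeded Dixon's 95% critical value for 4 samples. Of 40 groups examined (10 genes in 4 groups) 9 were picked out, and all 9 were the lowest value of preparation 4. Chance alone picks out roughly 5 in 100 groups, and the 40 groups share libraries. In GFP_TGFB these were Col4a1 at 3061 CPM, Col4a2 at 1998, Col4a5 at 107 and Lama4 at 107. In Cre_TGFB they were Col4a5 at 52.9 CPM, Lama2 at 31.9, Lama4 at 68.2 and Lamc1 at 239. In Cre it was Lama4 at 481 CPM, and no gene was picked out in GFP. The gap was widest for Lamc1 in Cre_TGFB, at 0.968 of the range.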

How the results depend on the processing

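DESeq2, RLE scaling, the stricter filter and removal of the length trend without the block left the counts of genes called as reported in all 5 comparisons, as did a fit of only the compared libraries in the 4 between groups (not run for the interaction). With no filter 1 gene in place of 2 was lower with TGFB in GFP cells, Nid2. The replicate block gave 1 higher and 5 lower in GFP cells and 5 lower in Cre cells, and changed no other count of these genes called. With the block and the length trend removed, 2 were higher, Col4a1 and Hspg2, and 5 lower in each. Hspg2 rose by 0.27 in GFP cells (edgeR adjusted p = 0.0022) and 0.18 in Cre cells (adjusted p = 0.0291), with all preparations kept. In that fit 25.8% and 26.1% of all tested genes were called higher and lower in GFP cells and 26.3% and 27.9% in Cre cells. Over all tested genes the block raised the calls with TGFB from 4445 to 7498 in GFP cells and from 4629 to 8030 in Cre cells. Leaving out a library or a preparation, with or without the block, gave 0 to 3 higher and 1 to 5 lower with TGFB in GFP cells and in Cre cells, and 0 to 2 lower for Cre against GFP without TGFB.

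Signs changed only for values that did not pass the test in the fit as reported or in the alternative. Over the same leave-outs, the TGFB change in GFP cells ran from -0.0489 to 0.33 for Col4a2, -0.45 to 0.0477 for Col4a5 and -0.00107 to 0.40 for Hspg2. In Cre cells it ran from -0.10 to 0.33 for Col4a2 and -0.44 to 0.22 for Col4a5. Cre against GFP without TGFB ran from -0.26 to 0.0288 for Col4a1, -0.30 to 0.0182 for Col4a2, -0.34 to 0.00177 for Lama4 and -0.43 to 0.0607 for Nid2. With TGFB it ran from -0.39 to 0.0765 for Col4a1, -0.39 to 0.069 for Col4a2, -0.45 to 0.15 for Col4a5, -0.56 to 0.0835 for Lama2, -0.29 to 0.00722 for Lamb1, -0.48 to 0.0100 for Lamc1 and -0.31 to 0.12 for Nid2. Nid2 apart, the values above 0 in the Cre comparisons arose where the Cre or Cre_TGFB library of preparation 4 alone was left out, which unbalances the preparations. Nid2 was also above 0 in other leave-outs, among them preparation 4 with the block (0.0239) with TGFB.

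The interaction ran from -0.27 to 0.20 for Col4a1, -0.25 to 0.21 for Col4a2, -0.16 to 0.45 for Col4a5, -0.14 to 0.50 for Lama2, -0.43 to 0.16 for Lama4, -0.13 to 0.17 for Lamb1, -0.30 to 0.19 for Lamc1, -0.29 to 0.19 for Nid1, -0.12 to 0.40 for Nid2 and -0.11 to 0.38 for Hspg2. For Lamb1 it was -0.00859 with the replicate block. With the length trend removed it was -0.048 for Lamb1, -0.0247 for Lama2 and -0.0908 for Hspg2 without the block, and -0.0494, -0.0675 and -0.0962 with it, with -0.0438 for Col4a5. The cause was not tested.

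For Cre against GFP, 0 lay inside the block's 95% interval for all genes but Hspg2 without TGFB and Lamc1, Nid1 and Hspg2 with it, none of which passed after adjustment. Levels per length depend on the annotation used, most for Lama4, Lama2 and Lamb1. The labels do not state the strand setting, which touches Nid2 most.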
